A study of Drosophila melanogaster with 6 samples.

Results

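The genes described here encode the sarcomere and the machinery of muscle contraction, measured in whole brain preparations of adult Drosophila melanogaster females of the wild-type strain CantonS. The list holds 34 genes, taken by symbol from probe sets that the platform annotation maps to a single gene. Of these, 28 had such a probe set, with 43 probe sets in all, among 10845 genes of the whole table. A gene was tested where the mean intensity of a probe set over the 6 arrays was at least 9.2, the 40th percentile, and 21 of the 34 genes met this. The 6 genes Act57B, Mhc, wupA, TpnC47D, TpnC25D and Tm1 were not analysed here. Unc-89 was found under its current symbol Obsc.

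RNA of brains without mushroom bodies was hybridised to 3 Affymetrix arrays (ablated 4, 5 and 6) and RNA of control brains to 3 (control 1, 2 and 3). The mushroom bodies, paired centres of olfactory learning, had been removed by feeding hydroxyurea, a blocker of DNA synthesis, at 25 mg/ml for 4 h to newly hatched larvae, while control flies had no treatment. Both groups were CantonS females kept at 25 °C. Every ablated array and no control array had the drug, so what the drug did elsewhere in the fly and what the missing mushroom bodies did cannot be told apart. Neither the number of flies per array nor the way the brains were freed of other head tissue is stated in the labels, and p-values measure the spread between these arrays, which may be technical.

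In a sarcomere, thick filaments of myosin pull on thin filaments of actin. Tropomyosin and the troponin complex on the thin filament hold contraction back until calcium binds troponin C. Thin filaments are anchored in the Z-disc by alpha-actinin and its partners, giant titin-like proteins span the sarcomere, and calcium is pumped back into the reticulum by SERCA. Brain neurons and glia build no sarcomeres, but the muscles of the head lie beside the brain, and some genes of the list also serve neurons and other cells. On that background knowledge the list was divided into 28 muscle-restricted genes, 16 of them tested, and 6 genes also used outside muscle, 5 of them tested. The last 6 are Tm1, Actn, Argk1, Gpdh1, SERCA and Msp300. In RNA of a whole preparation, fewer cells of a type and less RNA per cell cannot be told apart.

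Median intensities were 14.8, 13.0 and 14.7 on ablated 4, 5 and 6 and 17.6, 14.8 and 14.2 on control 1, 2 and 3, and control 1 was the highest array for 45.4% of all tested probe sets. The neuronal markers elav and nSyb were well measured on all arrays, at 60.6 to 93.0 and 417.8 to 508.6 on the ablated arrays and at 96.7 to 124.7 and 438.6 to 569.3 on the control arrays. Intensities are the deposited values on a linear scale, and values of different genes are not compared, since each probe set has its own sensitivity. Differences are ablated minus control on the scale log2(intensity + 2.7), which understates changes of dim genes.

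The most common pattern among the muscle-restricted genes set 1 array of each group apart from the other arrays. A block of 8 genes read highest on ablated 5 and control 2, with each of the other 4 arrays lower for all 8. The block was also limited to genes whose standard deviation within groups lay above the 99th percentile of all tested probe sets. These are Mlc1, Mlc2 and Mf of the thick filament, Tm2, up and TpnC73F of the thin filament, and Zasp66 and Mp20. In all, the 2 highest arrays were ablated 5 and control 2 for 9 of the 16 muscle-restricted genes (the ninth is tn) and for 1 of the 5 genes also used outside muscle (Actn), against 3.64% of all tested probe sets. The genes tn and Actn had narrower spreads and were left out of the block. The block was noticed in these values and cut by its spread, so its count and its wide spread are a description. With ablated 5 and control 2 left out, which leaves 2 arrays a group, 5 genes of the block were at least 1.5-fold higher without overlap, against 2.15% of all. None of them passed limma there, where the lowest adjusted p of any tested gene of the list was 0.519. The arrays left out were picked from these same data, and genes that vary together are not separate observations.

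**Figure D1:**
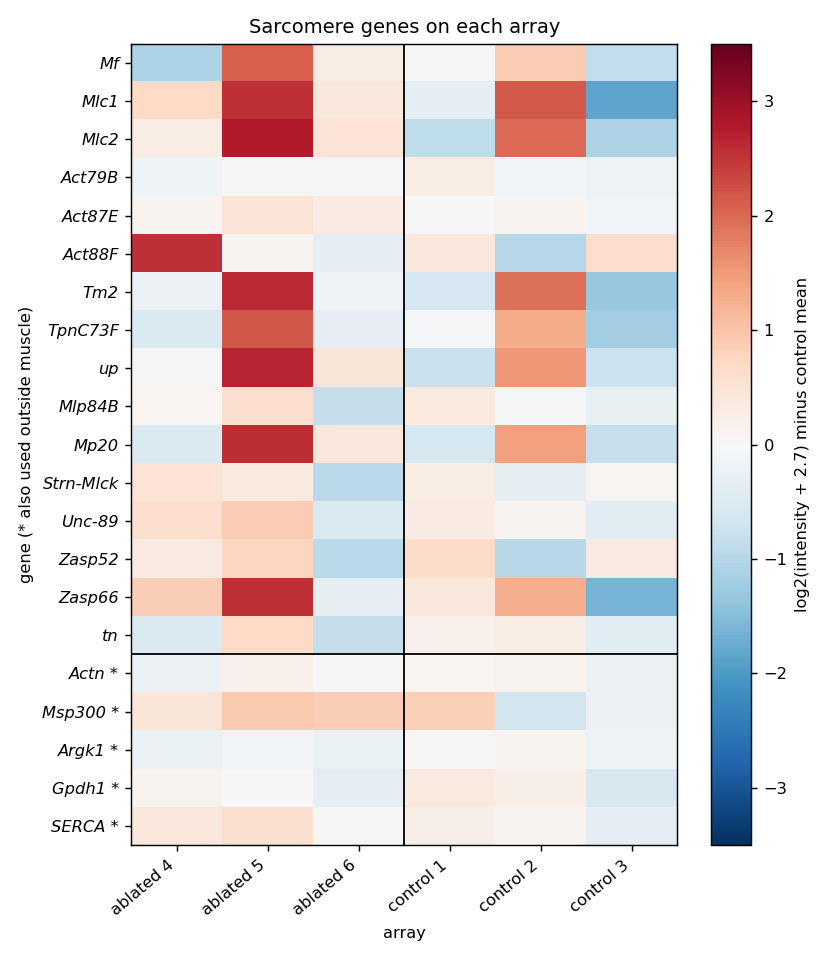
Each row is a tested gene and each column an array, and the colour gives log2(intensity + 2.7) minus the gene's mean over the 3 control arrays. Red columns of the block stand on ablated 5 and control 2, Act88F is red on ablated 4, and the rows below the line (genes also used outside muscle, marked *) are pale.

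Among thick filament genes, Mlc2, the regulatory light chain of muscle myosin, had intensities of 135.5, 778.8 and 159.2 on ablated 4, 5 and 6, against 59.8, 449.7 and 51.4 on control 1, 2 and 3. Ablated 5 and control 2 were far above the rest, and the groups overlapped through control 2 alone. The difference was 1.17 (SE 0.84, limma adjusted p = 0.618). Mlc1, the alkali light chain, read 28.4, 111.6 and 22.1 on ablated 4, 5 and 6, against 12.9, 83.0 and 2.7 on control 1, 2 and 3, with the same order of high arrays. Its difference, 1.20 (SE 0.90, limma adjusted p = 0.635), was the largest of the 21 genes. Mf, which encodes the thick filament protein myofilin, read 8.6, 101.2 and 26.8 on ablated 4, 5 and 6, against 21.6, 42.3 and 10.7 on control 1, 2 and 3. Here ablated 4 was the lowest of the 6 arrays, and the difference was 0.41 (SE 0.71, limma adjusted p = 0.834).

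On the thin filament, up, the gene of troponin T, read 17.1, 130.2 and 25.1 on ablated 4, 5 and 6, against 9.5, 57.4 and 9.6 on control 1, 2 and 3. Control 2 stood above ablated 4 and 6, and the other control arrays stood below every ablated array. The difference was 1.01 (SE 0.76, limma adjusted p = 0.637), and a second probe set of up stayed dim, at no more than 6.6 on any array. Tm2, a muscle tropomyosin, read 7.7, 71.3 and 8.3 on ablated 4, 5 and 6, against 5.3, 43.3 and 2.1 on control 1, 2 and 3 (difference 0.75, SE 0.92, limma adjusted p = 0.765). TpnC73F, a calcium-binding troponin C, read 4.5, 43.9 and 5.5 on ablated 4, 5 and 6, against 7.1, 22.6 and 1.7 on control 1, 2 and 3 (difference 0.44, SE 0.81, limma adjusted p = 0.843). Tm2 and TpnC73F thus had the Mlc2 order of the 2 high arrays, with the other arrays at single-digit intensities.

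Zasp66, a PDZ domain protein of the Z-disc, read 20.3, 71.2 and 7.4 on ablated 4, 5 and 6, against 13.5, 27.6 and 1.4 on control 1, 2 and 3 (difference 1.03, SE 0.81, limma adjusted p = 0.647). Mp20, a calponin-related muscle protein, read 64.2, 562.4 and 122.2 on ablated 4, 5 and 6, against 59.2, 251.1 and 51.0 on control 1, 2 and 3 (difference 0.83, SE 0.77, limma adjusted p = 0.693). Both repeated the pair of high arrays, with ablated 5 above control 2.

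Across the 8 genes of the block, ablated 5 read between 1.34 and 2.58 times the intensity of control 2. Within the control group alone the highest array was 3.95 to 30.7 times the lowest, and within the ablated group 5.05 to 11.8 times. Their differences between the groups ran from 0.41 to 1.20 with limma adjusted p between 0.618 and 0.843. With tn and Actn, which had the same 2 highest arrays but narrower spreads, the differences ran from -0.21 to 1.20. The highest array was then 1.28 to 30.7 times the lowest within the control group, and 1.32 to 11.8 times within the ablated group. Tm2, TpnC73F, Act88F, Zasp52, Strn-Mlck, tn and the dim genes fln, bt, Prm, sls, TpnC41C and Mlp60A lie outside the rule for genes given in full. They are given by array all the same, and were chosen after their values were seen.

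**Figure D2:**
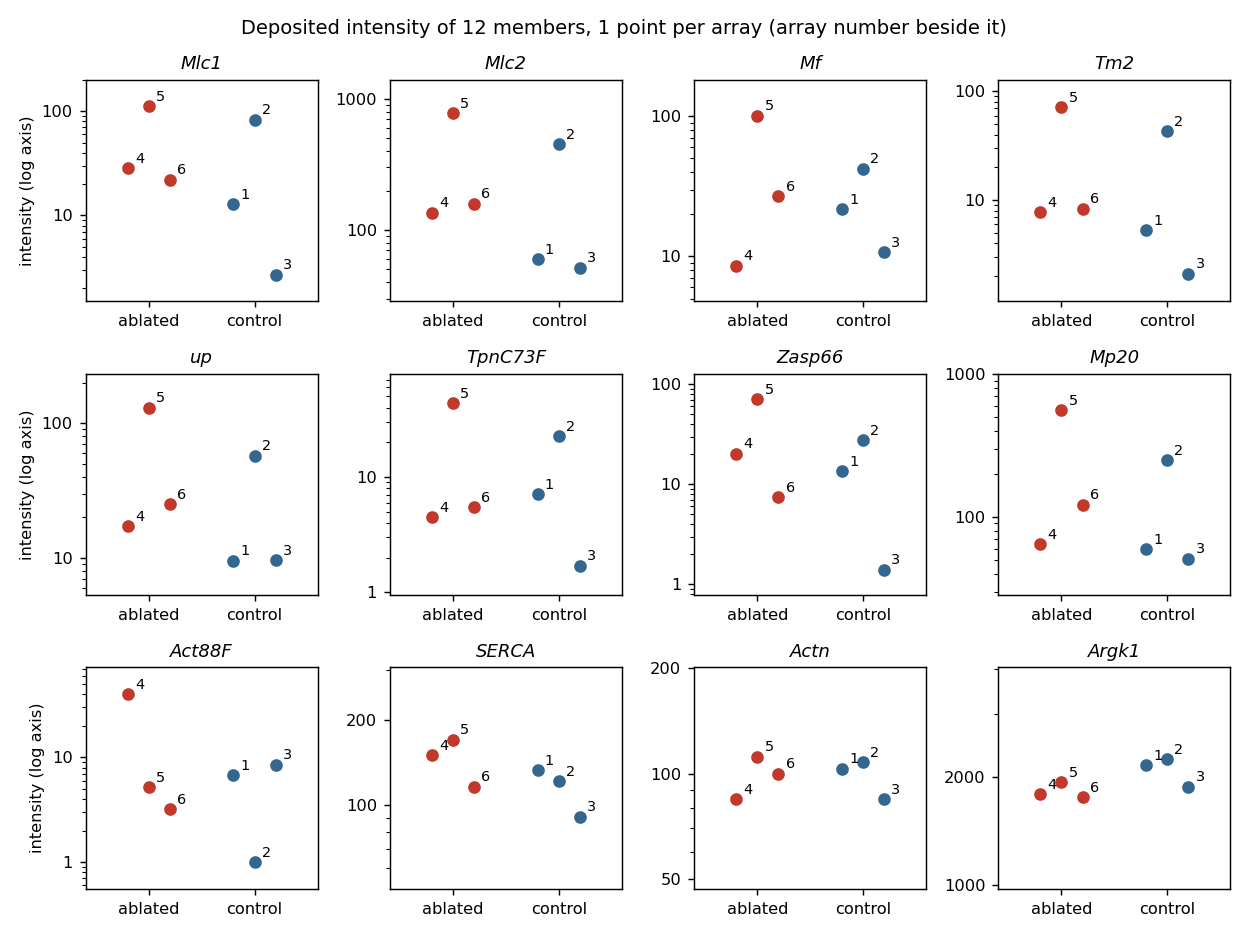
Deposited intensity on a log axis for 12 genes, with 1 point per array and its array number. Mlc1 to Mp20 show ablated 5 and control 2 above the other arrays of their groups, Act88F shows ablated 4 alone, and Argk1 and Actn show groups that overlap within a narrow range.

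Act88F and fln, genes of the indirect flight muscles, which drive the wings from the thorax, did not follow the block. Act88F, their actin, read 40.3, 5.2 and 3.2 on ablated 4, 5 and 6, against 6.8, 1.0 and 8.5 on control 1, 2 and 3. Ablated 4 alone was high, and control 2 was the lowest array. The control mean of Act88F (5.43) lay below 9.2, so the gene was tested only because of ablated 4; its difference was 0.78 (SE 0.77, limma adjusted p = 0.708), and -0.10 without that array. The gene fln, which encodes the thick filament protein flightin of the same muscles, was too dim for the test and read 19.4, 4.9 and 7.7 on ablated 4, 5 and 6, against 4.9, 9.0 and 4.2 on control 1, 2 and 3. Its highest array was again ablated 4. A further gene of flight muscle, TpnC4, stayed at 4.3 or below on every array.

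The other 2 actins differed little between arrays. Act87E read 134.5, 172.8 and 155.8 on ablated 4, 5 and 6, against 127.3, 134.7 and 117.6 on control 1, 2 and 3. Only ablated 4 overlapped the controls, just below control 2, and the difference was 0.28 (SE 0.16, limma adjusted p = 0.577). Act79B read 63.4, 70.7 and 66.9 on ablated 4, 5 and 6, against 84.9, 65.9 and 61.8 on control 1, 2 and 3 (difference -0.066, SE 0.18, limma adjusted p = 0.904). Both are read by probe sets with the suffix _f_at, which Affymetrix gives to probes shared by a sequence family. Transcripts of other actins can therefore enter these values, and they are uncertain as measures of the muscle actins alone.

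Among the other Z-disc and titin-like genes, Unc-89, the gene of obscurin, read 53.3, 66.2 and 23.3 on ablated 4, 5 and 6, against 43.2, 37.1 and 25.9 on control 1, 2 and 3 (difference 0.31, SE 0.35, limma adjusted p = 0.739). Ablated 4 and 5 were above every control and ablated 6 below, and a dimmer tested probe set of the gene stood at -0.29. Mlp84B, a muscle LIM protein, read 45.5, 66.3 and 23.2 on ablated 4, 5 and 6, against 55.5, 41.4 and 35.7 on control 1, 2 and 3 (difference -0.065, SE 0.34, limma adjusted p = 0.95). Both genes had ablated 5 highest and ablated 6 lowest of the 6 arrays, without a rise on control 2. Zasp52, a PDZ and LIM domain partner of alpha-actinin, read 22.1, 30.6 and 7.6 on ablated 4, 5 and 6, against 28.1, 7.5 and 22.2 on control 1, 2 and 3 (difference 0.040). Strn-Mlck, which encodes stretchin and a myosin light chain kinase, read 29.5, 26.4 and 9.4, against 24.9, 15.9 and 21.3 (-0.040). Control 2 was the lowest of all arrays for Zasp52 and the lowest control array for Strn-Mlck. The gene tn, a TRIM-type protein that stabilises muscle, read 10.8, 28.1 and 7.9, against 18.8, 19.9 and 11.4 (-0.21). A second tested probe set of Zasp52 stood at 0.28.

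The remaining 6 muscle-restricted genes with probe sets (bt, sls, TpnC41C, Prm, Mlp60A and TpnC4) were also too dim for the test, as was fln. For bt, the gene of the titin-like protein projectin, a probe set read 3.4, 9.8 and 0.4 on ablated 4, 5 and 6, against 0.2, 6.3 and 0.1 on control 1, 2 and 3. A second one, of similar mean, read 1.1, 14.3 and 0.7 on ablated 4, 5 and 6, against 0.8, 0.6 and 3.2 on control 1, 2 and 3, with control 2 lowest. Prm, the thick filament core protein paramyosin, read 1.5, 6.5 and 1.2 on ablated 4, 5 and 6, against 2.5, 4.0 and 1.8 on control 1, 2 and 3. Prm and the first probe set of bt thus also had ablated 5 highest and control 2 next, unlike the second probe set of bt. Nearly all these values lay below 9.2, where the order of arrays is uncertain. The titin-like gene sls did not, with 2.0, 11 and 12.1 on ablated 4, 5 and 6 against 14.8, 2.9 and 9.4 on control 1, 2 and 3 for its brightest probe set, and its other 3 probe sets stayed at 5.7 or below. TpnC41C, a further troponin C, read 1.1, 7.5 and 7.2 on ablated 4, 5 and 6, against 1.3, 6.0 and 1.3 on control 1, 2 and 3. Mlp60A, a muscle LIM protein, had its lowest values on the arrays that were high for the block, with 10.1, 2.3 and 12.2 on ablated 4, 5 and 6, against 13.7, 2.6 and 8.2 on control 1, 2 and 3.

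The genes also used outside muscle varied less between arrays. The highest array was 1.10 (Argk1) to 1.5 (Msp300) times the lowest within the ablated group, and 1.19 (Argk1) to 3.91 (Msp300) times within the control group. Argk1, the arginine kinase that buffers ATP in muscle and neurons, read 1789.4, 1934.3 and 1760.8 on ablated 4, 5 and 6, against 2154.1, 2242.3 and 1881.1 on control 1, 2 and 3. Ablated 5 overlapped control 3, and the difference of -0.19 (SE 0.10, limma adjusted p = 0.564) lay close to the median of all tested probe sets, -0.17. Actn, the alpha-actinin that crosslinks actin in Z-discs and in the cytoskeleton, read 84.6, 111.8 and 100.1 on ablated 4, 5 and 6, against 103.5, 108.1 and 84.6 on control 1, 2 and 3 (difference 0.00015, SE 0.18, limma adjusted p = 1). Gpdh1, the cytosolic glycerol-3-phosphate dehydrogenase of the glycerophosphate shuttle, read 69.8, 66.1 and 52.1 on ablated 4, 5 and 6, against 82.8, 76.1 and 43.5 on control 1, 2 and 3 (difference -0.062, SE 0.25, limma adjusted p = 0.936).

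SERCA, the calcium pump of the reticulum in muscle and neurons, read 150.0, 170.2 and 115.9 on ablated 4, 5 and 6, against 132.5, 121.1 and 91.0 on control 1, 2 and 3. Ablated 4 and 5 were above every control and ablated 6 lay among them (difference 0.33, SE 0.20, limma adjusted p = 0.580). Msp300, a nesprin that anchors nuclei to the cytoskeleton, read 12.5, 18.7 and 17.8 on ablated 4, 5 and 6, against 17.6, 4.5 and 7.2 on control 1, 2 and 3 (difference 0.73, SE 0.41, limma adjusted p = 0.568). It was higher on every ablated array than on control 2 and 3, while control 1 lay among the ablated arrays, and its other 2 probe sets stayed at 2.7 or below.

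None of the 21 tested genes passed limma over all 8381 tested probe sets, where 0% were called lower and 0% higher, and 0 of the 21 had an unadjusted p under 0.05, against 7.89% lower and 0.632% higher over all. The lowest adjusted p among them was 0.564, for Argk1. No gene of the 21 was at least 1.5-fold apart without overlap between the groups, against 3.20% lower and 0.477% higher over all tested probe sets. At any fold 0 of the 21 had groups without overlap, against 14.8% lower and 1.26% higher over all. Differences were above 0 for 15 of the 21 genes, against 25.9% of all probe sets. After centring arrays on their medians, quantile normalization or cyclic loess, 19 of the 21 were above 0. Muscle-restricted genes had 12 of 16 above 0 and a median of 0.43, and the genes also used outside muscle had 3 of 5 above 0 and a median of 0.00015, beside -0.17 over all. No test of the difference between these medians was made.

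**Figure D3:**
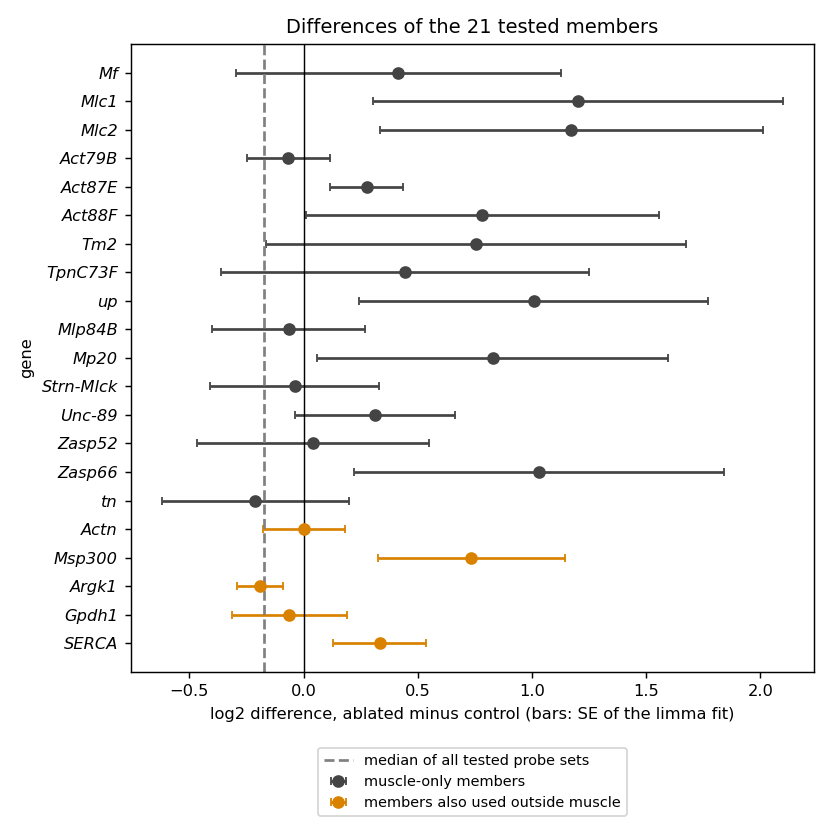
Points give the log2 difference, ablated minus control, of each tested gene and bars the standard error of the limma fit. The differences run from -0.21 for tn to 1.20 for Mlc1, with the widest bar on Tm2, and the dashed line marks the median of all tested probe sets at -0.17.

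These summaries rested on single arrays. Without ablated 5 the muscle-restricted median was -0.076 and 9 of the 21 genes were above 0. Without control 3 it was 0.16, while it was 0.65 and 0.78 without ablated 4 and 6. Without control 2, 5 genes were at least 1.5-fold higher with no overlap (Mlc1, Mlc2, Tm2, up and Mp20), against 1.59% of all probe sets. The same 5 were so with both control 2 and ablated 5 left out, against 2.15% of all, when their differences ran from 0.66 to 1.6, and Zasp52 was then lower (-0.79), as were 4.93% of all. On the arrays left, Mlc2 read 135.5 and 159.2 on ablated 4 and 6, against 59.8 and 51.4 on control 1 and 3. With 2 arrays a group, 0 of all probe sets passed limma, and these 2 arrays were left out because earlier results had shown them to be high for Mlc2.

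The spread between arrays of the same group was wide for many muscle-restricted genes. The standard deviation within groups on the log2 scale lay above the 99th percentile of all tested probe sets for 9 of the 16 muscle-restricted genes, the block of 8 and Act88F. The block was cut at this percentile, so the wide spread of its genes follows from that choice. The standard deviation ran to 1.66 for Tm2, against a median of 0.28 over all tested probe sets. For the 5 genes also used outside muscle it ran from 0.11 for Argk1 to 0.57 for Msp300, with 3 of them below the median. Mlc2 and Mp20, with mean intensities of 272 and 185, had SDs of 1.56 and 1.42. Ablated 5 was the highest of the 6 arrays for 13 of the 16 muscle-restricted genes, against 7.48% of all tested probe sets, and for 3 of the 5 others.

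**Figure D4:**
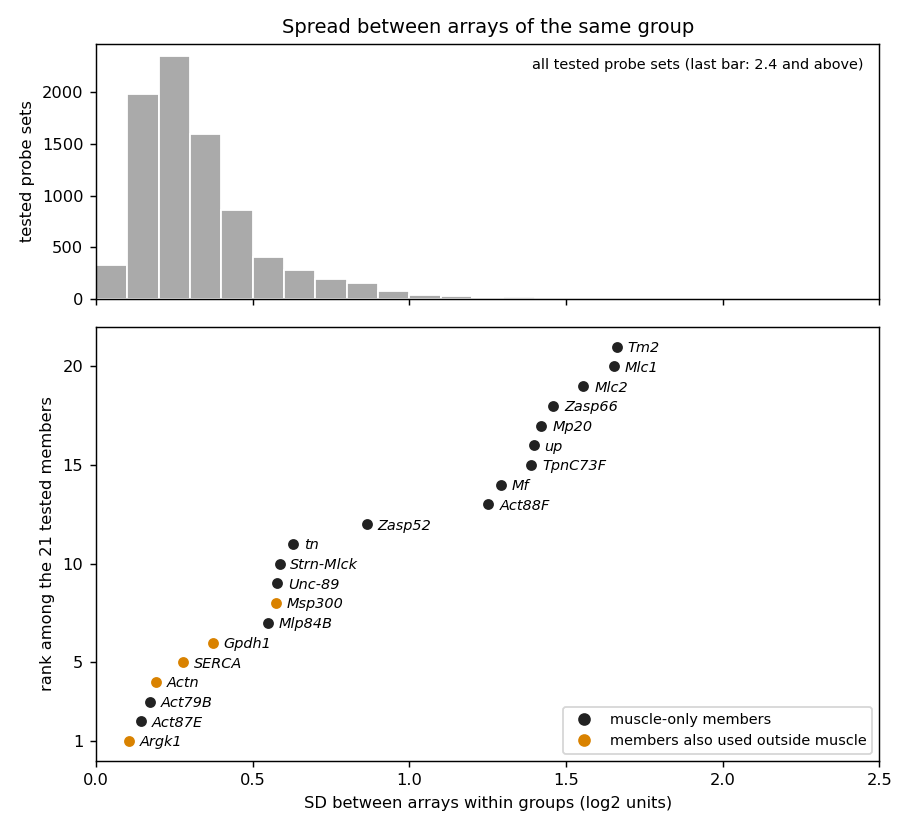
The upper panel counts all tested probe sets by the standard deviation between arrays within groups on the log2 scale, and the lower panel places the 21 tested genes on the same axis. The block of 8, chosen in part for its wide spread, and Act88F lie beyond 1.2, and Argk1, Act87E, Act79B, Actn and SERCA lie below 0.3.

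Other genes of muscle and of the contractile cytoskeleton were followed in 5 lists. Ablated 5 was the highest of the 6 arrays for 1 of 11 tested genes of Z-disc partners and attachment, 1 of 10 of excitation and calcium handling, 0 of 8 of non-muscle actomyosin, 0 of 5 of muscle development and 1 of 8 of glycolysis. Of 14 genes of Z-disc partners and muscle attachment, 11 were tested, 0 passed lower and 0 higher, and the median difference was -0.077. In that list tmod, which caps thin filaments and is also used outside muscle, read 235.4, 147.6 and 221.8 on ablated 4, 5 and 6, against 298.0, 262.5 and 258.2 on control 1, 2 and 3 (-0.46, SE 0.19, limma adjusted p = 0.554). The integrin linker talin (rhea) differed by -0.31. In neither gene did the ablated arrays overlap the control arrays, as was so in the lower direction for 14.8% of all probe sets. Of 13 genes of excitation and calcium handling, 10 were tested and 0 passed in either direction (median -0.28). There the alpha-sarcoglycan gene Scgalpha differed by -0.36 and the calcium channel gene Ca-alpha1D by -0.41, and Itpr, the inositol trisphosphate receptor of the reticulum, was the only gene of the list 1.5-fold apart without overlap, at -0.71, against 3.20% of all probe sets in the lower direction, and was named after its values were seen.

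Of 18 genes of non-muscle actomyosin, 8 were tested and 0 passed in either direction (median -0.22). The capping protein gene cpa, which closes the growing ends of actin filaments, read 85.2, 80.1 and 77.2 on ablated 4, 5 and 6, against 124.7, 128.0 and 136.0 on control 1, 2 and 3. Every ablated array lay well below every control array, at -0.66 (SE 0.15, limma adjusted p = 0.554). It was the 1 gene of the 8 that was 1.5-fold lower without overlap, against 3.20% of all tested probe sets. At any fold, 2 of the 8 were lower without overlap, against 14.8% of all. The actin-severing cofilin gene tsr differed by -0.22. Of 14 genes of muscle development 5 were tested and 0 passed (median -0.11), with the mesodermal factor twi at 0.87 and the myosin chaperone unc-45 at -0.44. Of 13 genes of glycolysis and the glycerophosphate shuttle 8 were tested and 0 passed (median -0.038), with the ADP/ATP carrier sesB at -0.35 and Pglym78, a phosphoglycerate mutase, at -0.22. These 2 genes were also lower without overlap.

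Markers of other tissues of the head were compared over the same arrays. The muscle-restricted probe sets, of 23 of the 28 genes, summed to 784.6, 2473.5 and 774.8 on ablated 4, 5 and 6, against 684.8, 1391.1 and 517.8 on control 1, 2 and 3. Tracheal markers, with 4 of 5 genes measured, summed to 379.8, 513.7 and 234.1 on ablated 4, 5 and 6, against 114.3, 202.0 and 74.0 on control 1, 2 and 3. Ablated 5 and control 2 were thus the highest array of their group in both lists, while ablated 4 came second for trachea. The 2 sums differed in that every ablated array was above every control array for trachea. A sum is weighted to its brightest genes, and most of the tracheal sum came from wat alone. For muscle, control 2 lay above ablated 4 and 6. Of the 3 tested tracheal genes, 2 (wat and pio) were at least 1.5-fold higher without overlap, against 0.477% of all tested probe sets. The third, verm, overlapped, at 17.2, 34.1 and 10.7 on ablated 4, 5 and 6 against 2.2, 19.0 and 14.8 on control 1, 2 and 3. In wat, a tracheal fatty acyl-CoA reductase, the arrays read 315.4, 419.5 and 189.3 (ablated) against 89.4, 154.9 and 43.1 (control).

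Antennal and taste organ markers, with 7 of 8 genes measured, summed to 430.0, 1641.4 and 470.5 on ablated 4, 5 and 6, against 627.7, 327.8 and 245.8 on control 1, 2 and 3. They were high with muscle on ablated 5 but not on control 2. As for trachea, 2 of the tested genes (Obp56d and Obp19d) were at least 1.5-fold higher without overlap, against 0.477% of all tested probe sets. Ablated 5 was the highest array for 5 of the 6 tested genes. The exception, Obp99a, was highest on control 1, where it gave 557.7 of the sum, against 291.6, 315.6 and 304.7 on ablated 4, 5 and 6. Fat body markers (6 of 7 genes) summed highest on control 1, at 24511.7 against 10917.8 to 19364.6 on the other arrays, and eye markers (3 of 9 genes) also on control 1, at 171.2 against 35.1 to 96.7. Neuronal markers (6 of 8 genes) ran from 1009 to 1271 on the ablated and from 1153 to 1539 on the control arrays. Glial markers (4 of 5 genes) ran from 1346 to 1662 on the ablated and 1571 to 1881 on the control arrays, and hemocyte markers (4 of 4) from 66.0 to 86.5 and from 83.7 to 97.3. No marker with a probe set was at 0 on any array, but a value above 0 does not show that a tissue was present. The antennal markers Obp28a on control 2 and Os-C on control 3 read 0.8. The part of these tissues in the muscle values was not tested. As a sign of RNA integrity, the 3' over the 5' control probe set of Gapdh gave a ratio of 10.5 on ablated 5 and 7.18 on control 2, both within the 7.12 to 13.0 of the other 4 arrays. The same ratio for actin was 17.21 on ablated 5 and 12.99 on control 2, within 12.55 to 19.36 on the others. The 3' signal was thus far above the 5' signal on every array. These ratios do not show intact RNA, and this limits all values given here.

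**Figure D5:**
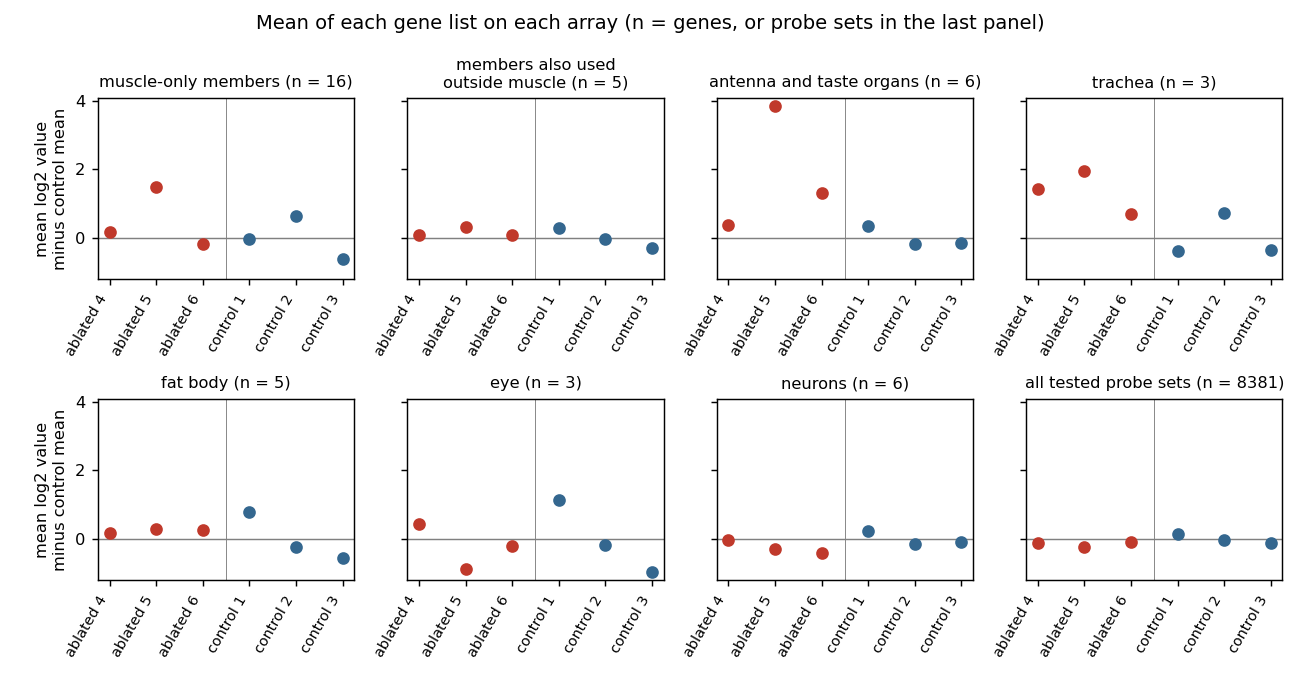
Each panel gives the mean over a gene list of log2(intensity + 2.7) minus the control mean on each array, ablated arrays in red on the left and control arrays in blue. The muscle-restricted mean is 1.49 on ablated 5 and 0.65 on control 2, trachea is 1.94 and 0.73 on these arrays, and the antennal list is 3.85 and -0.18.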

How the data were processed

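The authors deposited linear signal intensities, 1 for each probe set on each array. MAS5 is the tool given, per the submitters' processing notes, with no version, settings or scaling target. Of 14010 probe sets, 44 Affymetrix controls were left out; of the other 13966, 12443 had 1 gene in the platform annotation, 327 several and 1196 none, and 12394 took their current symbol from RefSeq (Release 6) by gene identifier. A gene's value is that of its brightest tested probe set. Intensities were turned into log2(intensity + 2.7), with the 20th percentile as offset and no further scaling. The comparison was fitted in R 4.3.3 by limma 3.58.1 (lmFit, then two-sided eBayes with trend), with Benjamini-Hochberg adjustment at 0.05 over the 8381 tested probe sets. In simulated data for this comparison, on 8381 probe sets, it called 32.8% of 2-fold and 83.2% of 4-fold changes. The simulated spread was drawn from all tested probe sets of similar level. These shares therefore do not hold for the block of 8, whose spread lay above the 99th percentile and for which fewer changes would be called.

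The genes, their division and the gene lists were chosen with earlier results of these data known. Named in full by rule were the 10 brightest muscle-restricted genes, the genes also used outside muscle, and any that passed or were 1.5-fold apart without overlap; per further list, at most 2 genes with the smallest p. No sequences or coordinates were used. Alternatives covered scaling, offset, filter, variance model, probe set choice and arrays left out, and a filter on the control mean was added after the data were seen. Precision is limited by the number of arrays. No 2 arrays shared more than 1.52% identical values.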

Additional observations from a re-analysis of the deposited data

How the results depend on the processing

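No paired analysis was possible because the groups share no replicate numbers. In none of the 17 alternatives did a sarcomere gene pass limma, with the lowest adjusted p between 0.359 and 0.881 when 1 array was left out, and the muscle-restricted median lay between -0.076 and 0.78 with 1 array left out and between 0.23 and 0.56 otherwise. Over all tested probe sets the median was -0.17 as deposited, -0.064 after centring arrays on their medians, -0.024 after quantile normalization and 0.0028 after cyclic loess. The median of the genes also used outside muscle was 0.19 after quantile normalization and 0.21 after cyclic loess, and ran from -0.10 to 0.11 with 1 array left out. Counts 1.5-fold apart without overlap ran from 0 to 5 higher and from 0 to 1 lower with 1 array left out. The higher ones were Msp300 without control 1 (2.21% of all probe sets) or ablated 4 (1.05%), the 5 named above without control 2, and Unc-89 without ablated 6 (1.34%), and the lower one was tn without ablated 5 (2.71%). Without control 2 and ablated 5 together there were 5 higher and 1 lower (4.93% of all).

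Signs of small differences turned with scaling. With centred arrays, quantile normalization and cyclic loess, Mlp84B stood at 0.045, 0.10 and 0.12, Act79B at 0.043, 0.13 and 0.14, Strn-Mlck at 0.070, 0.096 and 0.11 and Gpdh1 at 0.047, 0.12 and 0.14. With an offset of 16 Strn-Mlck was 0.0033. Without control 2 and ablated 5 together, Actn was -0.023, Zasp52 -0.79 and Gpdh1 0.0042. With 1 array left out the differences ran from -0.39 to 0.32 for Mlp84B, -0.15 to 0.066 for Act79B, -0.30 to 0.41 for Strn-Mlck, -0.34 to 0.11 for Gpdh1, -0.44 to 0.53 for Zasp52, -0.10 to 0.10 for Actn, -0.42 to 1.09 for TpnC73F, -0.42 to 1.18 for Mf, -0.10 to 1.33 for Act88F, -0.048 to 1.54 for Mp20, -0.18 to 1.72 for Tm2 and -0.67 to 0.10 for tn. The cause of these turns was not tested. Mlc1, Mlc2, up, Zasp66, Unc-89, Act87E, SERCA, Msp300 and Argk1 kept their direction in every alternative in which they were tested.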

Other observations

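Genes outside the list whose values over the 6 arrays were most like the mean of the 16 tested muscle-restricted genes were found by Pearson's correlation among 6844 genes, as a description, since 6 arrays give high values to many genes and 18 reached at least 0.95. The 8 closest were cact, Agpat4, AnxB9, Listericin, CG1572, sad, bero and CG13377. The IkappaB-type inhibitor gene cact had the highest, r = 0.989 (Spearman's rho 1), and read 95.4, 122.0 and 89.1 on ablated 4, 5 and 6, against 90.9, 100.7 and 77.3 on control 1, 2 and 3. Listericin, an antibacterial protein gene, had the widest range of the 8 (r = 0.976, rho 0.928) and read 6.8, 76.4 and 2.3 on ablated 4, 5 and 6, against 7.6, 19.2 and 2.3 on control 1, 2 and 3. AnxB9, an annexin, read 197.7, 277.4 and 201.1 on ablated 4, 5 and 6, against 200.1, 230.6 and 175.6 on control 1, 2 and 3 (r = 0.982, rho 0.771). Without ablated 5 and control 3, the arrays farthest from the median of the muscle mean, r over the other 4 arrays was 0.989 for cact, 0.936 for Listericin and 0.868 for AnxB9.

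Among the muscle-restricted genes themselves, r with the mean of the other 15 was between 0.808 and 0.954 for the block of 8, with Zasp66 highest. The block was chosen for its shared high arrays and its genes enter that mean, so its high r was built in. Outside the block r was 0.777 for tn, 0.760 for Unc-89, 0.726 for Act87E and 0.627 for Mlp84B. It was lower for Strn-Mlck (0.236), Act79B (0.146), Zasp52 (0.098) and Act88F (-0.31). Without ablated 5 and control 3, r was 0.909 for Zasp66 and 0.218 for Mf.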
